A study of Homo sapiens with 7 samples.

Results

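OPTN, MCM10 and HACD1 are 3 protein-coding genes on the short arm of human chromosome 10, between 10 and 20 Mb. They were chosen because earlier work on these libraries listed them as neighbours among the genes whose nascent RNA was higher in cells lacking CFAP20, so their levels in that comparison are given as a description, with no test of them. All 3 were found among 2149 protein-coding genes that could be placed in the deposited windows around replication origins, and all 3 were among the 1814 genes kept by a filter on low signal.

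Nascent RNA was labelled with bromouridine (BrU), a uridine analogue that growing RNA chains take up, and the labelled RNA was captured with an antibody and sequenced (BrU-seq). The cells were RPE1, an immortalised human line from retinal pigment epithelium. All libraries carried iCas9 and a p53/puro-dKO background: 3 were WT, 3 were CFAP20-KO, and 1 was CFAP20-KO + CFAP20-GFP, called rescue here. The pulse lasted 30 min with 2 mM BrU in every group, and no further treatment is named. The labels do not say how many clones were used, what drives CFAP20-GFP, or whether replicates came from separate cultures, and every p-value here therefore covers differences between the libraries as deposited, whose spread could be technical. The deposited signal is the coverage of the gene's own strand in bins of 200 bp, after a scaling made by the authors, and a gene's body signal is its mean over the bins between start and end, hence a level per length.

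OPTN encodes optineurin, an autophagy receptor that binds ubiquitin and members of the LC3 family and helps deliver damaged mitochondria and bacteria to autophagosomes. MCM10 encodes a DNA-binding replication factor that activates the CMG helicase when origins fire and travels with the fork. HACD1 encodes a 3-hydroxyacyl-CoA dehydratase of the endoplasmic reticulum, an enzyme of the elongation cycle that makes very long chain fatty acids, best known from skeletal muscle. The products have separate roles, and the genes are grouped here for their position and their levels.

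OPTN (ENSG00000123240) spans chr10:13100163-13138308 on the plus strand of hg38, and MCM10 (ENSG00000065328) spans chr10:13161558-13211110 on the same strand. Both lay in 1 window around a replication origin centred at position 13150001, which falls between them: OPTN ended 11693 bp before this centre and MCM10 started 11557 bp after it. HACD1 (ENSG00000165996) spans chr10:17589032-17617374 on the minus strand and started 18627 bp past another origin, centred at 17636001. The bodies were 38.1, 49.6 and 28.3 kb long and were covered by 191, 248 and 141 bins.

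The 250 bases before each annotated start are shown because the 3 genes were high in the same libraries and each start is where transcription of the measured body begins. They come from RefSeq (GRCh38.p14) and are written in the direction of transcription, with matches to the motifs searched in capitals. OPTN is chr10:13099913-13100162, plus strand. MCM10 is chr10:13161308-13161557, plus strand. HACD1 is chr10:17617375-17617624, minus strand.
OPTN: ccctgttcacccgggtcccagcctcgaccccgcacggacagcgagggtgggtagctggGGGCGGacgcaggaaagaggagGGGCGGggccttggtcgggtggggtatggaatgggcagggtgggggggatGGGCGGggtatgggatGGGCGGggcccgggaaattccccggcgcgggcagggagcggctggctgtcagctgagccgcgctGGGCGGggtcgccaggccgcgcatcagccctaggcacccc
MCM10: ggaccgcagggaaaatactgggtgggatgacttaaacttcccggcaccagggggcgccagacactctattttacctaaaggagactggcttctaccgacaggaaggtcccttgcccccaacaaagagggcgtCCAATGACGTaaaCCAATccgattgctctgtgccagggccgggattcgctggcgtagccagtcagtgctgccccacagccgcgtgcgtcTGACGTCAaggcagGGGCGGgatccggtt
HACD1: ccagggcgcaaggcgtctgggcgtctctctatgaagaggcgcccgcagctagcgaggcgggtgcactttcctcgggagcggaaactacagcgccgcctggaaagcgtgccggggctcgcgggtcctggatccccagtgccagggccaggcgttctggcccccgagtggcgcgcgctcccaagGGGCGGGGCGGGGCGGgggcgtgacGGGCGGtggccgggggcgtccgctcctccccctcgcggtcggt

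The motifs were the GC box GGGCGG, the CCAAT box CCAAT, the TATA box TATAAA, the cAMP response element core TGACGT and the E2F motif TTTGGCG, each searched on both strands. The GC box was in all 3 sequences, with 5 matches before OPTN, 4 before HACD1 and 1 before MCM10, and it was in 42.6% of 35116 RefSeq promoter windows of the same length. The 4 matches before HACD1 include 3 that overlap at their ends. CCAAT was found before MCM10 alone of the 3, with 2 matches (32.0% of windows), as was TGACGT with 3 matches (7.10% of windows). Of those 3, 2 are the overlapping strands of 1 palindrome that ends 22 bases before the start, and the remaining one shares its first base with a CCAAT match. TATAAA (10.7%) and TTTGGCG (1.59%) had no match in the 3 windows. The share of G and C was 74.4% before OPTN and 75.2% before HACD1, above the median of 58.0% over all windows, and 59.6% before MCM10, near that median. Letters in a window are a description of sequence and say nothing of a factor's binding.

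OPTN had the largest difference in body signal of the 3 genes. Its signal was 2.11, 2.38 and 2.18 in WT replicates 1 to 3, and 6.64, 8.65 and 6.23 in CFAP20-KO replicates 1 to 3. Every CFAP20-KO library lay above every WT library, and the WT libraries sat within a narrow band. The means were 2.22 ± 0.138 and 7.17 ± 1.29 (SD, n = 3 each), a ratio of 3.23. In such bulk samples a change in the share of cells that transcribe a gene and a change in RNA per cell cannot be told apart.

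MCM10 had a body signal of 2.24, 1.91 and 2.91 in the WT libraries, and of 4.72, 5.67 and 5.08 in the CFAP20-KO libraries. These groups did not overlap either, although the lowest CFAP20-KO library was only 1.62 times the highest WT library. The means were 2.35 ± 0.506 and 5.15 ± 0.482 (SD, n = 3 each), a ratio of 2.19.

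HACD1 had a body signal of 2.50, 2.13 and 2.81 in the WT libraries, and of 8.22, 6.58 and 5.96 in the CFAP20-KO libraries. The highest CFAP20-KO library for HACD1 was replicate 1, whereas for OPTN and MCM10 it was replicate 2. The means were 2.48 ± 0.341 and 6.92 ± 1.16 (SD, n = 3 each), a ratio of 2.79. Groups with CFAP20-KO above WT without overlap were seen in 3 of 3 genes here and in 12.9% of the 1814 tested genes, a share that the choice of the genes does not allow to be read further.

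**Figure D1:**
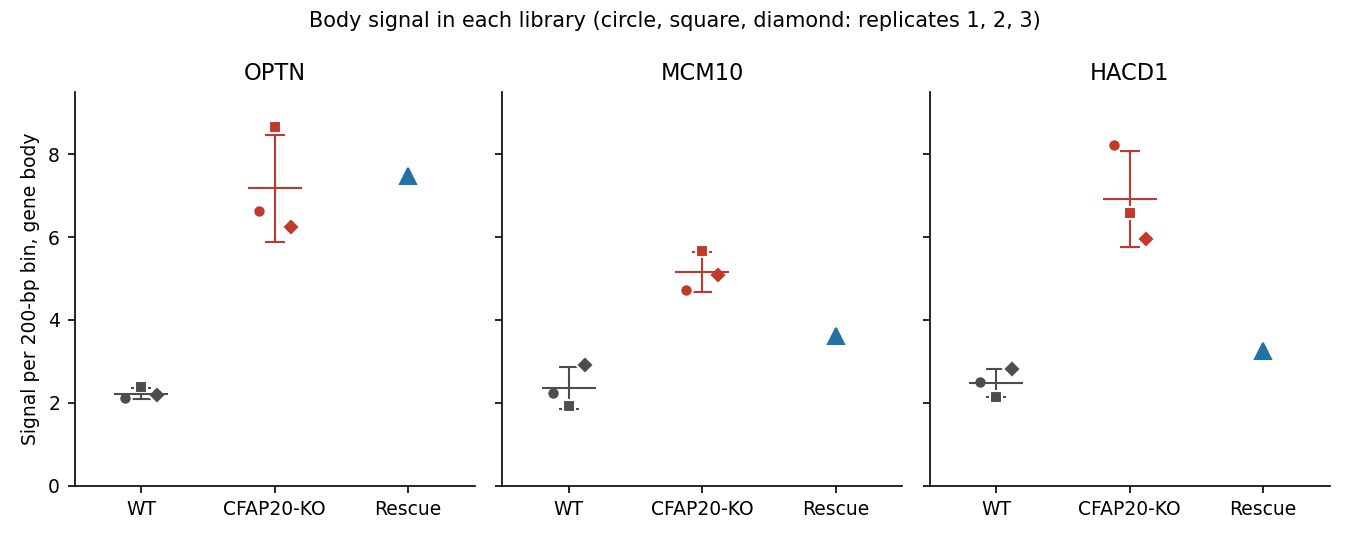
Body signal (mean per 200-bp bin) of OPTN, MCM10 and HACD1 in each library; horizontal dashes are means and bars are SD over 3 libraries, and the rescue triangle is 1 library measured in the start-site windows. All CFAP20-KO points lie above all WT points for the 3 genes, and the rescue value is 7.46 for OPTN, 3.61 for MCM10 and 3.25 for HACD1.

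In WT cells the 3 genes were at closely similar levels per length, in the order OPTN, MCM10 and HACD1, and no neighbours in this order differed beyond their spread. They stood at the 36.5, 38.8 and 40.6 percentile of the tested genes. In CFAP20-KO cells they stood at the 72.5, 61.1 and 71.5 percentile. There OPTN and HACD1 differed by less than their spread, and MCM10 was the lowest of the 3, with every library below every HACD1 and OPTN library.

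On the log2(signal + 0.0829) scale, where differences of low genes come out too small, the difference between CFAP20-KO and WT was 1.64 for OPTN, 1.45 for HACD1 and 1.12 for MCM10. The median difference over all tested genes was 0.17, and centring each library on its median left 1.45, 1.25 and 0.92. Of the 1814 genes, 5 had a larger difference than OPTN, 10 a larger one than HACD1 and 34 a larger one than MCM10. The genes of the same block closest to MCM10 in size that were not listed were DHTKD1 above it (1.23) and PHYH below it (1.10).

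The splice table's column names carry a number per library that is called a run here, and its meaning is not given in the sources used. WT replicate 1 and CFAP20-KO replicate 1 share a run, WT replicate 3 shares one with CFAP20-KO replicates 2 and 3, and WT replicate 2 shares one with the rescue library. Within runs the log2 difference for OPTN was 1.61 for CFAP20-KO replicate 1, 1.95 for replicate 2 and 1.48 for replicate 3. For MCM10 these were 1.05, 0.94 and 0.79. For HACD1 they were 1.68, 1.20 and 1.06. The difference had the same sign in every pair, and for MCM10 and HACD1 it was larger in the first run than in the other. CFAP20-KO replicates 2 and 3 were the most alike of all pairs of libraries, with a correlation of 0.998 across genes against 0.969 for the next pair, so the second run holds fewer independent values than its 2 CFAP20-KO libraries.

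**Figure D2:**
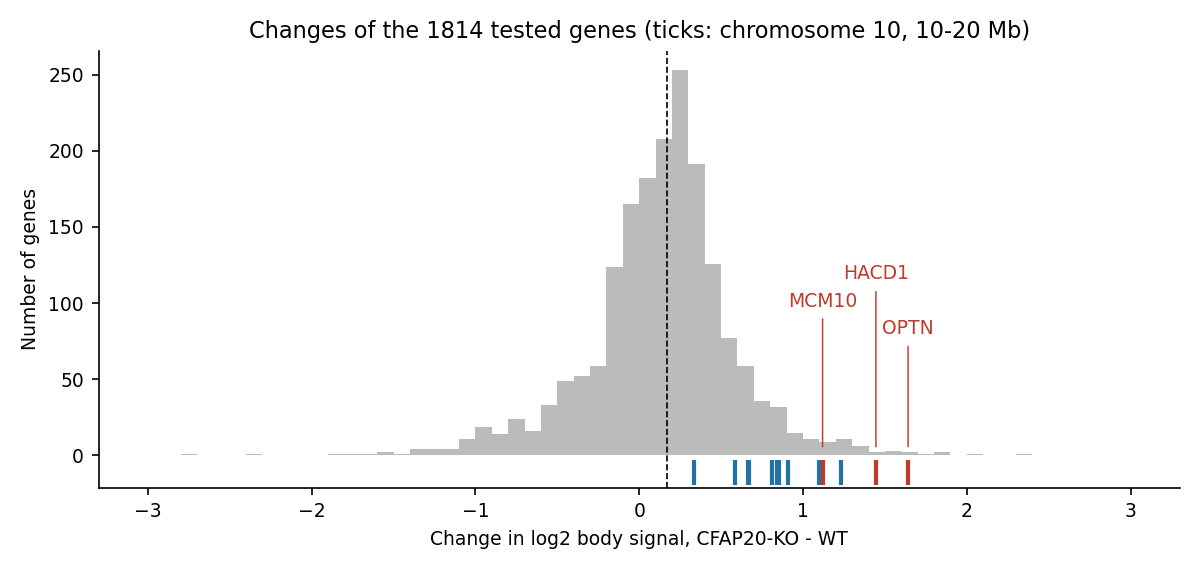
Histogram of the CFAP20-KO minus WT difference in log2 body signal for the 1814 tested genes, with ticks below for the 13 tested genes of the block (red for OPTN, MCM10 and HACD1, blue for the others) and a dashed line at the median of 0.17. The 3 genes lie in the upper tail, and all 13 ticks lie to the right of 0.

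Along OPTN the ratio between the groups was lowest near the start. In the first 2 kb the signal was 5.04, 3.56 and 3.27 in WT and 10.9, 5.41 and 6.80 in CFAP20-KO, a ratio of means of 1.95. Over 5 equal parts of the body from start to end the ratio of means was 2.13, 2.91, 3.70, 4.55 and 4.16. The WT signal fell off along the gene in all 3 libraries, from 3.12 ± 0.255 in part 1 to 1.75 ± 0.183 in part 5 (SD, n = 3). In CFAP20-KO replicate 1 it fell off too, from 9.41 to 4.92, whereas in replicates 2 and 3 it went from 5.10 to 10.4 and from 5.39 to 6.58. Over the 5 parts CFAP20-KO replicate 1 was 3.11, 3.07, 3.83, 2.60 and 3.16 times WT replicate 1 of its run, with no increase along the gene. Replicate 2 was 1.74, 3.12, 4.20, 8.22 and 5.80 times WT replicate 3, and replicate 3 was 1.84, 2.28, 3.03, 5.19 and 3.68 times that library.

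These 2 libraries also had high OPTN signal in exons. Bins lying mostly within the 15 exons of the canonical transcript had a signal of 2.54, 4.48 and 3.43 in WT and of 7.50, 31.5 and 19.1 in CFAP20-KO. Bins without exon sequence had 2.08, 2.07 and 1.96 in WT and 6.55, 4.15 and 3.88 in CFAP20-KO. The log2 ratio of exon to intron bins was 0.28, 1.08 and 0.78 in WT and 0.19, 2.90 and 2.27 in CFAP20-KO, so CFAP20-KO replicate 1 resembled WT replicate 1 of its run. Among 1337 tested genes with at least 5 bins of each kind, 99.6% had a lower ratio than OPTN in CFAP20-KO replicate 2 and 99.2% in replicate 3, against 69.9% in replicate 1 and 63.4 to 80.3% in the WT libraries. In intron bins alone the OPTN difference was 1.18 on the log2 scale, with all CFAP20-KO libraries above all WT libraries, and the exon bins differed by 2.26.

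MCM10 and HACD1 had no such exon excess. The log2 exon-to-intron ratio of MCM10 was -0.09, 0.67 and 0.00 in WT and -0.15, 0.67 and 0.36 in CFAP20-KO, close to the medians of the 1337 genes, which ranged from -0.24 to 0.45 over the 6 libraries. For HACD1 it was -1.06, -0.45 and -0.59 in WT and -1.82, -0.60 and -0.66 in CFAP20-KO, below the median gene in every library. The intron bins of MCM10 differed by 1.09 and those of HACD1 by 1.47, close to their differences over the whole body.

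**Figure D3:**
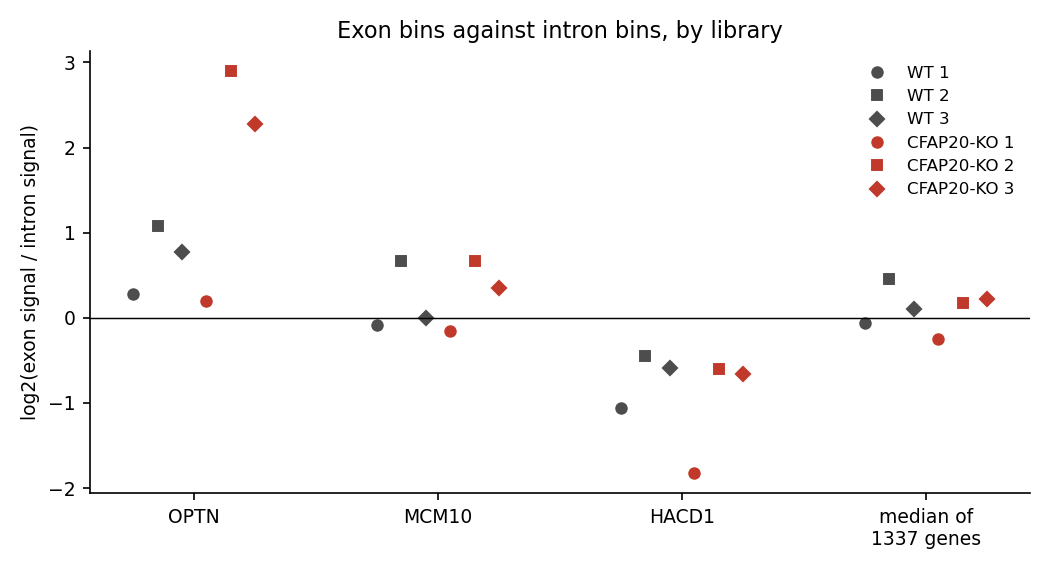
Log2 ratio of signal in exon bins to signal in intron bins for OPTN, MCM10 and HACD1 in each WT (grey) and CFAP20-KO (red) library, with the median of 1337 genes at the right. CFAP20-KO replicates 2 and 3 stand apart for OPTN at 2.90 and 2.27, and the other OPTN values lie between 0.19 and 1.08.

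MCM10 had an uneven profile that was shared by both groups. Its first 9 kb had a signal of 1.07, 0.945 and 1.08 in WT and of 1.99, 2.07 and 1.68 in CFAP20-KO. The next 9 kb had 2.40, 2.71 and 3.36 in WT and 5.31, 7.27 and 6.64 in CFAP20-KO. The ratio between these stretches was 2.24 to 3.95 over the 6 libraries, and the signal changed from 1 kb to the next where exon 3 begins, 9.36 kb from the start. The log2 difference between groups was 0.83 before this point and 1.16 after it. Over 5 equal parts of the MCM10 body the ratio of CFAP20-KO to WT means was 1.79, 2.41, 2.23, 2.16 and 2.15, so it stayed within a narrow range after part 1.

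HACD1 had its highest mean signal towards the start. The first 2 kb had a signal of 11.0, 4.48 and 12.2 in WT and of 19.2, 14.4 and 14.2 in CFAP20-KO. Here WT replicate 2 was much lower than the other WT libraries, while the CFAP20-KO libraries were all above 14. Within runs CFAP20-KO replicates 1 to 3 were 1.74, 1.18 and 1.16 times the WT library there. The signal then declined along the body, to 1.06 ± 0.315 in WT and 3.93 ± 0.606 in CFAP20-KO in the last of 5 equal parts (SD, n = 3). The ratio of means was 2.06 in part 1 and between 2.93 and 3.73 in the following ones. Within runs the ratios in part 1 were 2.27, 1.53 and 1.38.

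The signal of the first 2 kb over that of the remaining body, as a log2 ratio, was lower in CFAP20-KO than in WT on average for all 3 genes. It was 1.33, 0.61 and 0.61 in WT and 0.76, -0.70 and 0.13 in CFAP20-KO for OPTN. For HACD1 it was 2.51, 1.17 and 2.50 in WT and 1.37, 1.25 and 1.40 in CFAP20-KO, and for MCM10 -0.57, -0.92 and -0.99 against -0.52, -1.60 and -1.46. The groups overlapped for all 3 genes. Within runs the difference was -0.57, -1.31 and -0.47 for OPTN, -1.15, -1.24 and -1.10 for HACD1, and 0.05, -0.61 and -0.48 for MCM10. Over 1645 tested genes with at least 10 kb in the windows the median difference between the groups was -0.26. The library medians over these genes were 1.89, 0.91 and 1.61 in WT and 1.63, 1.01 and 1.02 in CFAP20-KO. Within runs the median gene was thus also lower in CFAP20-KO, and more so in the run of WT replicate 3.

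Outside the bodies the signal was low. The 5 kb before OPTN had at most 0.0944 in any library, those before MCM10 at most 0.137 and those before HACD1 at most 0.0787. Past the end of OPTN, the next 5 kb had a mean of 0.269 ± 0.220 over the WT libraries and of 0.996 ± 0.0820 over the CFAP20-KO libraries (SD, n = 3), and for MCM10 these were 0.488 ± 0.0958 and 1.001 ± 0.266. For HACD1 it was 0.522 ± 0.308 and 1.52 ± 0.786, with groups that overlapped. Within 5 kb to each side of the origin centre between OPTN and MCM10, the plus-strand signal was 0.188, 0.378 and 0.179 in WT and 0.401, 0.348 and 0.367 in CFAP20-KO, below both bodies in every library. Around the origin upstream of HACD1 the minus-strand signal was 0.0706, 0.239 and 0.220 in WT and 0.478, 0.668 and 0.512 in CFAP20-KO, where the groups did not overlap.

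**Figure D4:**
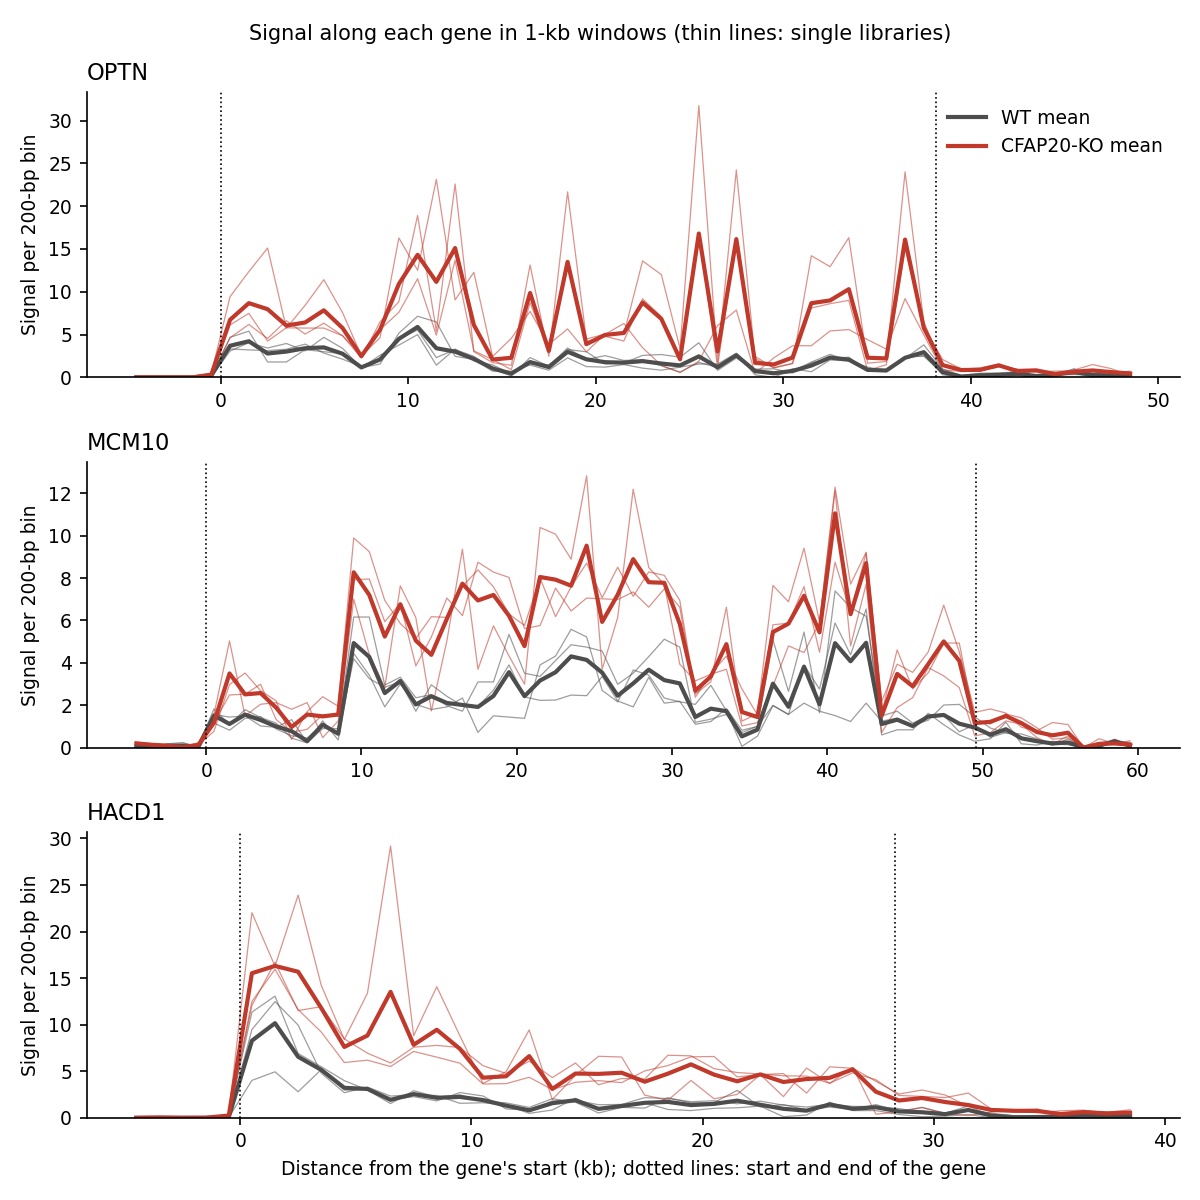
Signal per 200-bp bin in 1-kb windows against the distance from each gene's start, with thin lines for single libraries and thick lines for the means of 3 WT (grey) and 3 CFAP20-KO (red) libraries. CFAP20-KO lies above WT through most of each body, OPTN shows narrow peaks shared by CFAP20-KO replicates 2 and 3, MCM10 steps up about 9 kb from its start, and the HACD1 mean is highest near its start.

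Of the 3 genes, MCM10 alone had an intron in the deposited splice table, which gives an index from 0 to 1 for 6709 introns. It is intron 1 of ENST00000378694 and intron 2 of the canonical transcript, chr10:13164210-13170921, 6712 bp long, and it ends where the MCM10 signal steps up. Its splice sites in hg38 are shown because they bound the measured junction and its end lies where the signal steps up, with the first and last 2 intron bases in capitals.
MCM10 intron start: agcatggatgGTaagacctggcagt
MCM10 intron end: cttcttttcccctAGaggaggaaga

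The splice index of this intron was 1, 0.878 and 0.949 in WT, 0.933, 0.948 and 0.955 in CFAP20-KO and 0.943 in rescue. The means were 0.942 ± 0.0614 and 0.946 ± 0.0112 (SD, n = 3), and the CFAP20-KO values lay within the range of the WT values. The index was above that of 81.2 to 99.5% of introns in every library. limma called 0 of 6537 introns at an adjusted p of 0.05, where 373 had an unadjusted p under 0.05. A difference in this index was not detected, and its depth per intron is unknown.

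The rescue library was not used to choose the genes. WT replicate 2, to which it is compared below, was part of the contrast that chose them, so the comparison is not independent of the choice. Rescue values were not taken from origin windows, and genes were matched to the deposited start-site windows by the shape of their profile in the 6 other libraries. OPTN and MCM10 matched 1 window each by the rule set for this, with correlations of at least 0.964 and 0.971 in each library and at most 0.419 and 0.474 for the next window. HACD1 met only a rule added after seeing the data, since the next window also correlated at 0.907, but its level agreed to within 0.866% in all 6 libraries.

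In these windows OPTN was at 7.46 in rescue, against 2.35 in WT replicate 2 of the same run. This rescue value lay inside the range of the CFAP20-KO libraries (6.30 to 8.70). MCM10 was at 3.61 in rescue and 1.89 in WT replicate 2, above all WT libraries and below all CFAP20-KO libraries. HACD1 was at 3.25 in rescue and 2.14 in WT replicate 2, which is nearer to the highest WT library (2.81) than to the lowest CFAP20-KO library (5.95). The log2 differences from WT replicate 2 were 1.64, 0.91 and 0.59. They compare 1 library with 1 library, so there is no replicate check and no test. With all 3 WT libraries as reference the differences were 1.71 for OPTN, 0.63 for MCM10 and 0.38 for HACD1.

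Of 1181 genes searched, 89 met the rule set beforehand, so most of the 436 genes used here entered by the added rule. That rule sets no limit on the next window. Of the 436 genes, 57.8% were higher in rescue than in WT replicate 2, with a median difference of 0.09, and 7.8% were higher by at least 1, as OPTN was. A larger difference than that of OPTN was found in 1.38% of them, than that of MCM10 in 8.94% and than that of HACD1 in 20.4%. Over the first 3 kb the genes parted further. OPTN was at 12.2 in rescue against 3.55 in WT replicate 2, and MCM10 was at 2.19 against 1.10. HACD1 was at 3.77 against 3.87, while WT replicates 1 and 3, of other runs, were at 10.4 and 10.2.

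The genes around them were measured in the same way. The annotation has 50 protein-coding genes starting between 10 and 20 Mb, of which 17 were placed and 13 tested. All 13 had a higher mean in CFAP20-KO, as did 67.7% of all tested genes, and the groups did not overlap in 9 (12.9% of all tested genes), of which 6 were among the 10 other than OPTN, MCM10 and HACD1. The median difference over the 13 was 0.85, over the 10 without OPTN, MCM10 and HACD1 it was 0.83, and over all genes 0.17. The range over the 10 was 0.33 to 1.23. The untested genes CCDC3, UCMA, FAM107B and OLAH had almost no signal in any library.

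Among the 10, DHTKD1, a mitochondrial enzyme of lysine breakdown, had the largest difference, with 2.30, 1.15 and 2.30 in WT and 5.95, 4.04 and 3.59 in CFAP20-KO. PHYH, which encodes the peroxisomal phytanoyl-CoA hydroxylase, followed with 0.585 ± 0.117 in WT and 1.43 ± 0.708 in CFAP20-KO, where replicate 1 was the highest. SEPHS1 and NMT2, a selenophosphate synthetase gene and an N-myristoyltransferase gene, had means of 6.19 ± 1.52 and 3.96 ± 0.764 in WT and 10.9 ± 0.148 and 6.96 ± 0.625 in CFAP20-KO (SD, n = 3). At the low end was CDNF, a neurotrophic factor gene, with 0.645, 0.379 and 0.709 against 0.782, 0.659 and 0.749, where the groups overlapped. MEIG1, a spermatogenesis gene, was lower in CFAP20-KO replicates 2 and 3 than in WT replicate 3 of their run, by -0.22 and -0.47. Within runs the median of the 13 was 1.05, 0.75 and 0.73, with 13, 11 and 12 of them higher.

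limma's moderated test called none of the 13 genes between CFAP20-KO and WT, and 0 of 1814 genes in either direction (0%), with 153 at an unadjusted p under 0.05 and a smallest Benjamini-Hochberg adjusted p of 0.118. With the run as a covariate limma called 6 of the 10 genes other than OPTN, MCM10 and HACD1 as higher, and 7.06% of all genes as higher and 4.96% as lower. These 6 were NMT2 and FAM171A1 (adjusted p = 0.0285 each), BEND7 (0.0331), SEC61A2 (0.0453), DHTKD1 (0.0459) and SEPHS1 (0.0482). The block was noticed in this same contrast, so these calls describe its genes and are no independent evidence for it. In that fit WT replicate 2 has no CFAP20-KO partner and adds nothing to the difference. Centring the libraries as well left 2 of the 10 called as higher (2.65% of all genes), with 48 higher and 131 lower over all genes against 128 and 90. Averaging CFAP20-KO replicates 2 and 3 left 4 of the 10 (4.24% of all genes).

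The higher signal was not limited to the stretch from 10 to 20 Mb. On the short arm outside it (starts below 39 Mb), 10 of 11 tested genes had a higher mean in CFAP20-KO, with a median difference of 0.88. Within runs the median of the 4 genes below 10 Mb was 0.98, 0.28 and 0.30, against 0.05, 0.21 and 0.20 over all genes. For the 7 genes from 20 to 39 Mb it was 0.73, 1.02 and 1.03. PIP4K2A, a phosphatidylinositol phosphate kinase gene, differed by 1.25, ACBD5, a peroxisomal acyl-CoA-binding protein gene, by 1.31, and MTPAP, the mitochondrial poly(A) polymerase gene, by 1.05. GJD4, a connexin gene, was the 1 gene with a lower mean, at -0.89. Beyond 39 Mb on the same chromosome 52 of 84 genes had a higher mean and the median was 0.12. Among 178 stretches of 10 Mb with at least 5 tested genes, the one from 10 to 20 Mb had the highest median, and the next was that from 30 to 40 Mb on the same chromosome (0.75). The stretch from 10 to 20 Mb was noticed in this same contrast and holds OPTN, MCM10 and HACD1, so its rank is only a description.

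The rescue library showed the same division along the chromosome. All 6 genes of the 10 to 20 Mb stretch whose start-site window passed either match rule were higher in rescue than in WT replicate 2, with a median difference of 0.96 and a range of 0.59 to 1.64. Of the 3 that are not OPTN, MCM10 or HACD1, NMT2 was at 10.2 against 4.60, SEPHS1 at 7.20 against 4.55 and PHYH at 1.005 against 0.458. WT replicate 2 was the lowest WT library for MCM10, HACD1, SEPHS1 and PHYH, and the highest for OPTN and NMT2. In origin windows SEPHS1 had 6.21, 4.67 and 7.70 in WT replicates 1 to 3, so its rescue value lay within the WT range. MTPAP, the 1 other short-arm gene with a window that passed, differed by 0.66. Of 26 genes beyond 39 Mb, 13 were higher, with a median of -0.06. These too compare 1 library with 1 library.

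**Figure D5:**
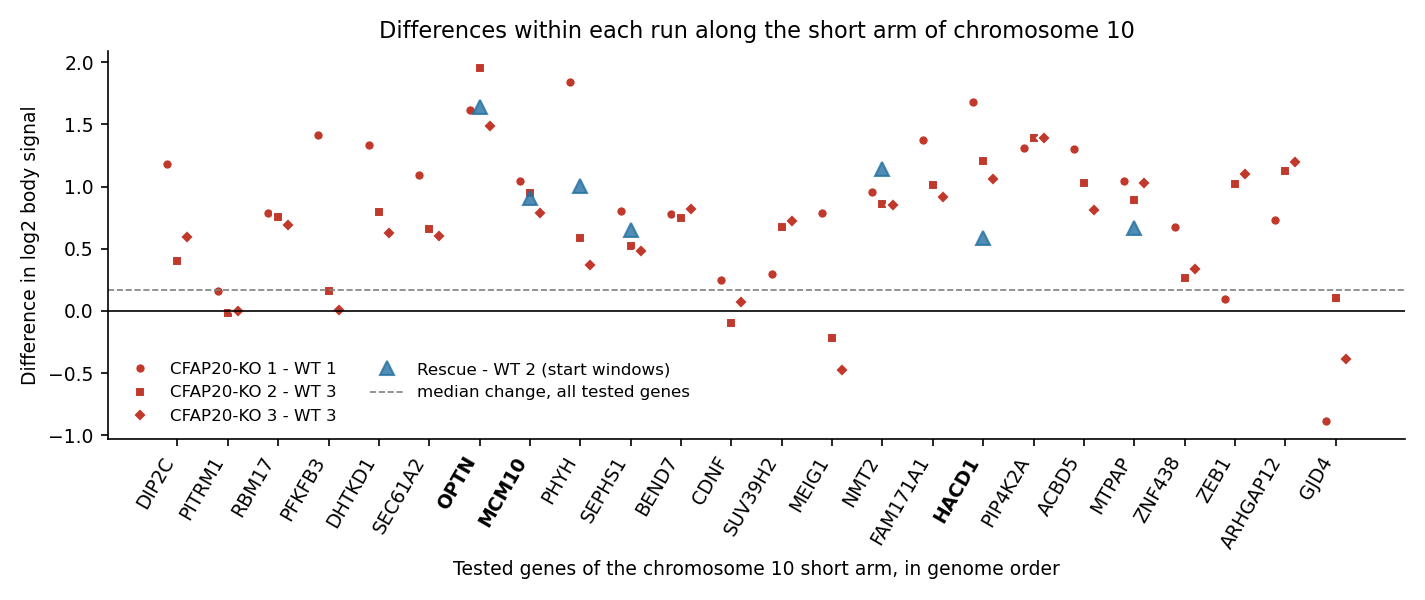
Difference in log2 body signal for the 24 tested genes of the chromosome 10 short arm in genome order, within runs (red, 3 CFAP20-KO libraries each against the WT library of its run) and for rescue against WT replicate 2 in start-site windows (blue triangles). The dashed line is the median over all genes of the difference between the means of 3 libraries each (0.17). For the plotted differences the medians are 0.05, 0.21 and 0.20 within runs over all genes, and 0.09 for rescue over the 436 matched genes. Most points lie above the dashed line, with OPTN the highest, and all triangles lie above 0.

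Genes of the 3 pathways were drawn from lists chosen with earlier results of these data known. Of 75 genes of selective autophagy 9 were tested, and none passed limma's test in either direction, as was so for all 1814 genes. Their median difference was 0.32, and 0.30 without OPTN, against 0.17 for all genes. Next to OPTN the largest differences among well-expressed members were those of LAMP1, a lysosomal membrane protein gene (6.24 ± 2.58 in WT, 8.60 ± 5.17 in CFAP20-KO), and ATG101, a subunit of the ULK1 complex (16.1 ± 9.98 and 18.3 ± 9.86; SD, n = 3). With the run as a covariate the ATG101 difference turned to -0.09. The differences of LAMP1 and ATG101 were smaller than the spread between libraries. With the run as a covariate none of the 8 other than OPTN was called, against 7.06% of all genes called as higher and 4.96% as lower.

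Of 70 genes of replication initiation and the fork 12 were tested and none passed in either direction, as was so for all 1814 genes. Their median difference was 0.03, and 0.01 without MCM10. RIF1, a regulator of replication timing, had means of 7.80 ± 0.680 (WT) and 10.6 ± 1.36 (CFAP20-KO; SD, n = 3), with a limma adjusted p of 0.745. GINS2, a subunit of the CMG helicase, had 8.39 ± 2.86 and 9.99 ± 2.16. MCM3, of the helicase ring, had 26.9 ± 5.19 and 25.5 ± 6.34, and CDC6, which loads that ring, 24.3 ± 4.99 and 24.7 ± 1.51. With the run as a covariate none of the 11 other than MCM10 was called, against 7.06% of all genes called as higher and 4.96% as lower.

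Of 43 genes of very long chain fatty acid synthesis 10 were tested and none passed in either direction, as was so for all 1814 genes. Their median difference was -0.04, and -0.14 without HACD1. HACD3, a paralogue with the same enzymatic step, had 6.44 ± 1.26 in WT and 5.40 ± 0.616 in CFAP20-KO. SCD, the stearoyl-CoA desaturase, had 181, 98.1 and 145 in WT and 158, 39.6 and 42.3 in CFAP20-KO, so that CFAP20-KO replicate 1 lay within the WT range. With the run as a covariate limma called 1 of the 9 other than HACD1, the desaturase gene SCD5 (1.49 ± 0.250 and 2.78 ± 0.639; adjusted p = 0.0318), against 7.06% of all genes called as higher.

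Across the 6 libraries the log2 signals of OPTN, MCM10 and HACD1 correlated with each other at 0.94 to 0.95, over points that fall into 2 groups. Among 906 genes with signal at or above the median, SIRT1 and ZNF131 were most like OPTN (r = 0.985 and 0.984). Those most like MCM10 were MYLK, CNOT1 and SEPHS1 (0.989, 0.979 and 0.977), of which SEPHS1 is in the same block. Those most like HACD1 were MEAF6, STC1 and ZNF562 (0.982, 0.975 and 0.973). Their own differences were mostly smaller, such as 0.39 for SIRT1 and 0.28 for STC1, since r ignores size.

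Of 15 marker genes of retinal pigment epithelium 3 were placed: TJP1 at 3.68 ± 1.13 (WT) and 4.40 ± 1.36 (CFAP20-KO; SD, n = 3), RLBP1 at 0.222 ± 0.124 and 0.0562 ± 0.0473, and RGR at 0 in every library. RLBP1 thus had a lower mean in CFAP20-KO. Its CFAP20-KO mean was under the filter on low signal (0.0829), which it passed only through WT. The summed level of these 3, mostly that of TJP1, was 3.06 to 5.04 in WT and 2.94 to 5.35 in CFAP20-KO. Of neuronal markers 2 of 7 were placed and summed to 2.91 to 6.40 in WT and 1.40 to 4.17 in CFAP20-KO, and of epithelial markers 1 of 8, at 0.0511 to 0.509 and 0.0776 to 0.226. None of 18 skeletal muscle and 9 haematopoietic markers was placed, and CFAP20 itself was not analysed here. In limma's fit with the run as a covariate the epithelial marker ELF3 was lower (adjusted p = 0.0467), against 4.96% of all genes called as lower. RLBP1 was also called lower there (limma adjusted p = 0.0311), which is not read further because of how it passed the filter. Without the run none of the placed markers passed, as was so for all 1814 genes. Of the 2 neuronal markers, MAP2 had at least 1.112 in WT and at most 0.878 in CFAP20-KO. SYT1 had 1.80, 3.99 and 1.74 in WT and 0.969, 2.82 and 3.31 in CFAP20-KO, with groups that overlapped. How many of all tested genes were lower in CFAP20-KO without overlap was not counted, so the MAP2 values are not read further. The part of other cell types in the differences was not tested. The smallest step of the scaled signal, which falls as depth rises, was 0.0733 in WT replicate 2, the deepest library, and 0.393 in CFAP20-KO replicate 1, the shallowest.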

How the data were processed

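BrU-seq libraries of 3 WT, 3 CFAP20-KO and 1 rescue sample were used. The submitters' processing notes name STAR 2.7.7a, SAMtools 1.11, HOMER 4.8.2, R 4.0.5, Trim Galore 0.6.5 and FastQC 0.11.9, with hg38. The deposited tables hold signal (coverage) per 200-bp bin around origins or transcript starts, after scaling by the authors; its reference was not given in the sources used. For single introns a splice index was deposited, as a fraction from 0 to 1. Its intron starts are counted from 0 and were written from 1.

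GENCODE 44 canonical coding transcripts over 3 kb, at least 2 kb from coding neighbours of their strand, were placed in origin windows of their strand (2149 of 15197). Genes with a mean of at least 0.0829 (the 10th percentile of non-zero values, also the pseudocount) were tested with limma 3.58.1 (R 4.3.3, trend, robust) on log2 values, 3 against 3, with Benjamini-Hochberg adjustment at 0.05. The fit was checked on simulated data. Other summaries used Python with numpy and pandas. Each library's values were multiples of a smallest step, but a fragment covers several bins, so no count model or counting interval was used.

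The members and lists were chosen with earlier results of these data known. Named genes were OPTN, MCM10 and HACD1, tested genes of the block, list members past the threshold (or otherwise the 3 largest changes among genes at or above the median level), and the 3 genes most like each member, of which 1 is not reported here. MCM3, CDC6, SCD5 and the short-arm genes outside the block were named after their values were seen. Alternatives covered the pseudocount, filter, centring, part of the body, single libraries, the replicate block and the run.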

Additional observations from a re-analysis of the deposited data

How the results depend on the processing

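The direction of the OPTN, MCM10 and HACD1 differences was the same under every alternative tried. Leaving out single libraries gave 1.50 to 1.73 for OPTN, 0.99 to 1.28 for MCM10 and 1.32 to 1.54 for HACD1. As the groups of these genes do not overlap, leaving out 1 library could not have changed the direction. A pseudocount of 1 gave 1.33, 0.88 and 1.18, and the first 10 kb gave 1.07 for OPTN and 0.80 for MCM10. Centring gave 1.45 for OPTN, and bins without exons, added after seeing the data, gave 1.18. The median of the chromosome 10 neighbours stayed between 0.66 and 0.96. For rescue, the first 3 kb gave 1.75 for OPTN and -0.036 for HACD1, and all 3 WT libraries as reference gave 1.71 for OPTN and 0.38 for HACD1. The cause of these shifts was not tested.

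The 0 genes called by limma became 218 with the run covariate, 179 with centring too, 133 with CFAP20-KO replicates 2 and 3 averaged (77 higher, 56 lower), 176 with the replicate block (105 higher, 71 lower) and 110 with block and centring (33 higher, 77 lower). Deviations of same-numbered libraries correlated at 0.83, 0.57 and 0.04, and WT replicates 2 and 3 correlated best with another number, so numbers were not taken as pairs. The block left the 3 differences at 1.64, 1.12 and 1.45, which is fixed by its design of 1 library per group in each block. No other alternative called a gene, and none called an intron.

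Depth per gene and intron is unknown.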
